A study of Mus musculus with 12 samples.

Results

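The genes described here encode growth factors and chemokines that the somatic cells of the testis supply to germ cells, together with the receptor of IGF1: *Gdnf*, *Kitl*, *Cxcl12*, *Csf1*, *Fgf2*, *Bmp4*, *Inhba*, *Igf1* and *Igf1r*. They were chosen by their symbols, which the GENCODE M1 annotation of mm9 pairs with the Ensembl identifiers of the deposited tables, and all 9 were found among the 37675 genes listed. The samples were whole testes of C57BL/6NHsd mice with no deletion, transgene or treatment, from 2 mice each at postnatal day (PND) 7, 14, 17, 21 and 28. The ages span the first wave of spermatogenesis. Spermatogonia are the only germ cells at PND 7, meiosis is under way at PND 14 and PND 17, and haploid spermatids are present from PND 21 and elongate by PND 28. Libraries of RNA without ribosomal RNA were read on the SOLiD 4. Each mouse at PND 7 carried 2 barcodes, and their counts were added together here.

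Germ cells in the seminiferous tubule divide and differentiate in contact with Sertoli cells, within a wall of peritubular myoid cells, and beside an interstitium of Leydig cells, macrophages and blood vessels. This somatic niche decides through secreted factors how many spermatogonial stem cells renew themselves and how many differentiate. GDNF and FGF2 are known to sustain stem cell renewal, CXCL12 to hold the stem cells in the niche, KIT ligand to carry differentiating spermatogonia forward, and activins, BMPs and IGF1 to set the growth of somatic and germ cells in the young testis.

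Positions are those of mm9. *Kitl* (ENSMUSG00000019966, stem cell factor, the ligand of KIT) spans chr10:99478264-99563047 on the plus strand with 16 exons, and *Igf1* (ENSMUSG00000020053, insulin-like growth factor 1) spans chr10:87321010-87399792 on the plus strand with 22 exons. *Gdnf* (ENSMUSG00000022144, glial cell line-derived neurotrophic factor) spans chr15:7761011-7787575 on the plus strand with 3 exons. *Cxcl12* (ENSMUSG00000061353, the chemokine that binds CXCR4) spans chr6:117118553-117131385 on the plus strand with 9 exons, and *Csf1* (ENSMUSG00000014599, colony stimulating factor 1) spans chr3:107543966-107563387 on the minus strand with 21 exons. *Inhba* (ENSMUSG00000041324, the inhibin beta A subunit) spans chr13:16103684-16119044 on the plus strand with 7 exons, and *Igf1r* (ENSMUSG00000005533, the IGF1 receptor) spans chr7:75097713-75371484 on the plus strand with 23 exons. *Bmp4* (ENSMUSG00000021835, bone morphogenetic protein 4) spans chr14:47003195-47010344 on the minus strand with 8 exons. *Fgf2* (ENSMUSG00000037225, basic fibroblast growth factor) spans chr3:37211441-37304299 on the plus strand with 13 exons. All 9 are annotated as protein-coding, and counts were taken over their exons. *Fgf2* shares exon bases with *Nudt6* (242 bases) and *Cetn4* (55 bases) on the opposite strand and with *Bbs12* (32 bases) on its own, and *Bmp4* shares 89 bases with *Gm15217* on the opposite strand. Whether strand was used in counting is not given in the sources used here, so reads over these bases cannot be assigned to 1 gene with certainty.

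The 250 bases before the RefSeq transcription start were read for the 9 genes, in 10 windows since *Gdnf* has 2 starts (RefSeq, GRCm38.p6). A TATA box, TATAAA, was found on either strand in the windows of *Kitl* and *Inhba* and in 1 of the *Gdnf* windows, against 12.4% of all 32851 mouse windows. A GC box, GGGCGG, was found in the windows of *Kitl*, *Cxcl12*, *Csf1*, *Fgf2*, *Bmp4* and *Igf1r*, against 32.7% of all windows. The core of a cAMP response element, TGACG, was found for *Gdnf*, *Cxcl12* and *Fgf2* (17.8% of all windows), and the full element TGACGTCA for none of them (1.55% of all windows). The 3 windows with a TATA box are shown with that of *Cxcl12*, which has GC boxes on both strands and no TATA box. They lie at chr10:100015571-100015820 (*Kitl*), chr13:16011601-16011850 (*Inhba*), chr15:7809798-7810047 (*Gdnf*) and chr6:117168285-117168534 (*Cxcl12*), all on the plus strand, and run 5′ to 3′ with the last base just before the start. Capitals mark the letters of these motifs on either strand, and neighbouring GC boxes overlap in *Kitl* and *Cxcl12*.
Kitl: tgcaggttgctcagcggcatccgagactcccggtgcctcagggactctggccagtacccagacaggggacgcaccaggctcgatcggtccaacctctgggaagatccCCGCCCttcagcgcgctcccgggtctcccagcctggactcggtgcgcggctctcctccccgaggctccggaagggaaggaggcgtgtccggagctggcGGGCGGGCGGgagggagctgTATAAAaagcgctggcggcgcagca
Inhba: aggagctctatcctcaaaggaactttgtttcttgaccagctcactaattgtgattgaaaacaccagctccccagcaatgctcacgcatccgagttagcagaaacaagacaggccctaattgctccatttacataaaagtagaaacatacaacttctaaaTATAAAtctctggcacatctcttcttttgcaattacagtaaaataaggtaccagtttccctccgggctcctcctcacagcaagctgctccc
Gdnf: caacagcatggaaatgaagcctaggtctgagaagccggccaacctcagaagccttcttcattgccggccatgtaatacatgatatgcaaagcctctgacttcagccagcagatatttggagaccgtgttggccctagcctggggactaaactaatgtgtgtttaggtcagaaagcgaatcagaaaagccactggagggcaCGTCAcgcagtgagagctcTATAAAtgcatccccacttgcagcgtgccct
Cxcl12: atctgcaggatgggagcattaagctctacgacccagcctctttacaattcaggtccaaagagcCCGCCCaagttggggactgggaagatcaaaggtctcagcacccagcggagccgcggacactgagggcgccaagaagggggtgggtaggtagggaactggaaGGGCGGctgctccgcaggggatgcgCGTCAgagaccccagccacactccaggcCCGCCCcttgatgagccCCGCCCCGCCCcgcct

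Each mouse had from 3994026 to 13559548 counted reads (median 7103531). Levels are given as counts per 1000000 reads (CPM) on TMM-scaled library sizes with the SD of the 2 mice, and log2 fold changes from edgeR with their SE. The detection floor of 3 counts in a library corresponded to between 0.209 and 0.726 CPM, depending on the mouse, and covers counting error only. Marker genes of the testis were present: the summed level of 8 spermatocyte markers was 284 to 301 CPM at PND 7 and 1475 to 2262 CPM at PND 14, and 10 spermatid markers rose from 3.20 to 6.31 CPM at PND 7 to between 6403 and 7388 CPM at PND 28. PND 14 mouse 1 stood apart with 231 CPM of spermatid markers, against 27.5 CPM in PND 14 mouse 2 and at most 29.7 CPM at PND 17. Its level of the protamine gene *Prm1* was 52.7 CPM, against 1.05 CPM in the other PND 14 mouse. PND 7 mouse 2 had counts for 16616 genes, against 19521 in PND 7 mouse 1 and between 18986 and 21943 in the later mice. Where the call of a niche gene in PND 7/14 or PND 7/28 changed without one of these mice, values are given with and without that mouse. Fold changes of the other listed genes are given with all mice only.

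Per length of exon, *Kitl* was the most highly expressed of the 9 genes at each age and *Igf1* came second. In deposited RPKM the PND 7 order was *Kitl* at 56.5 ± 2.62 (SD, n = 2 mice), *Igf1* at 24.3 ± 6.70, *Igf1r* at 13.0 ± 0.332, *Cxcl12* at 8.89 ± 3.58, *Inhba* at 7.99 ± 5.53, *Gdnf* at 3.96 ± 1.63, *Fgf2* at 3.90 ± 3.47, *Csf1* at 2.95 ± 0.626 and *Bmp4* at 1.05 ± 1.22. The mice of neighbouring genes in this order did not overlap from *Kitl* down to *Cxcl12*, while from *Cxcl12* down to *Csf1* each gene overlapped with the next. At PND 28 the order was *Kitl* at 10.8 ± 0.870 RPKM, *Igf1* at 3.56 ± 0.877, *Igf1r* at 2.31 ± 0.544, *Cxcl12* at 1.37 ± 0.0919, *Csf1* at 1.34 ± 0.141, *Fgf2* at 0.630 ± 0.354, *Bmp4* at 0.360 in each mouse and *Gdnf* at 0.260 ± 0.368, with *Inhba* listed at 0 in both mice. *Cxcl12* and *Csf1* overlapped at PND 28, as did *Bmp4* and *Gdnf*, and *Gdnf* and *Inhba*. *Inhba* had therefore moved from the middle of the order to its end, and *Csf1* from near the end to the middle.

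Summed over the 9 genes, the level was 648 to 767 CPM in the PND 7 mice, 354 to 361 CPM at PND 14, 276 to 290 CPM at PND 17, 203 to 205 CPM at PND 21 and 143 to 164 CPM at PND 28. The sum was lower at each later age, with no overlap between the mice of neighbouring ages. Most of it was *Kitl* and *Igf1*, with means of 309 and 226 CPM at PND 7 and 74.6 and 41.5 CPM at PND 28. Taken singly, 7, 2, 5 and 4 of the 9 genes were lower without overlap in PND 7/14, PND 14/17, PND 17/21 and PND 21/28. The shares of all tested genes were 26.6%, 16%, 30.9% and 22.9%. In whole testis RNA, fewer cells of a type and less RNA per cell cannot be told apart.

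**Figure D1:**
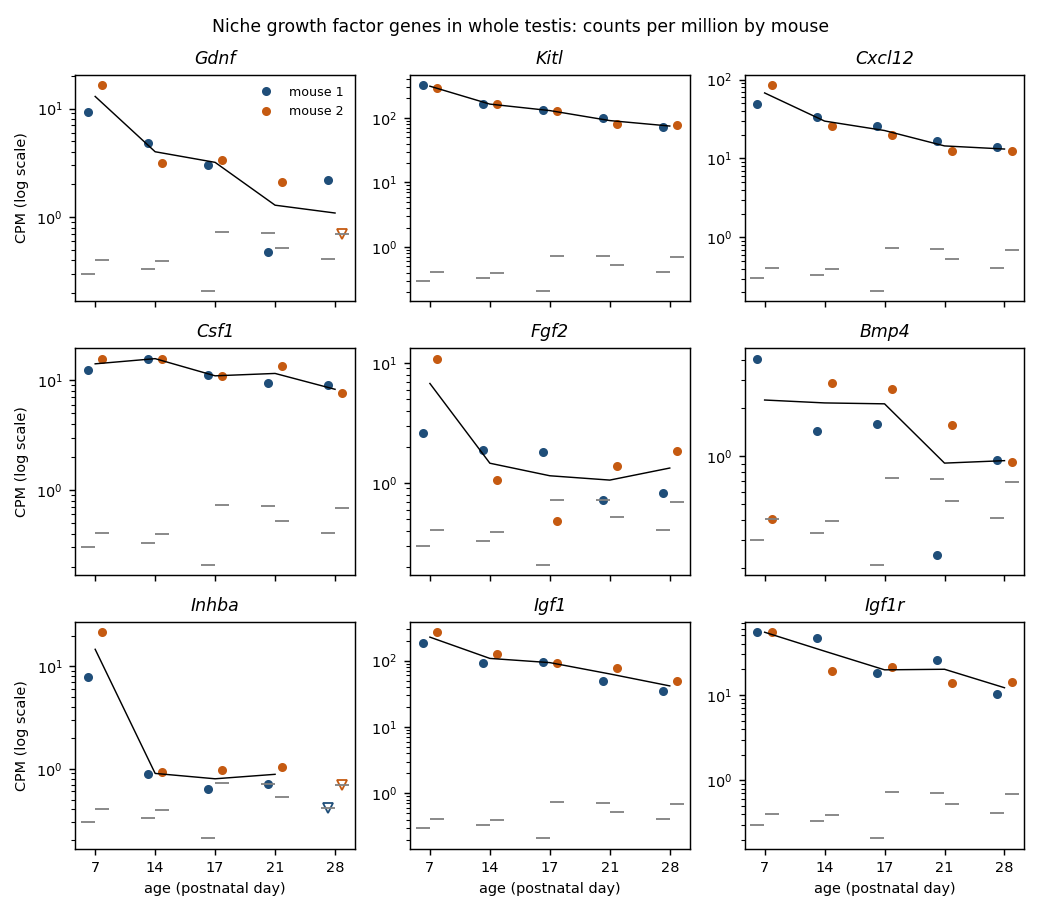
CPM of each of the 9 genes (log scale, a separate range for each gene) against age in postnatal days, with a point for each mouse and a line through the mean of the 2 mice. Grey dashes are the level of 3 counts in that mouse and open triangles at a dash are mice with 0 counts. *Kitl*, *Igf1* and *Cxcl12* descend with age, *Inhba* falls after PND 7 and has 0 counts in both PND 28 mice, and the points of *Bmp4* and *Fgf2* scatter near the dashes after PND 7.

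The question of the chronological comparisons was which genes change as each germ cell type is added, and for the niche genes the changes that passed the test came between PND 7 and PND 14. A gene is called changed here at a Benjamini-Hochberg adjusted p under 0.05 over all 16860 genes tested (edgeR) with at least a 2-fold change. In PND 7/14, *Inhba*, *Cxcl12* and *Igf1* fell, 3 of the 9 genes and none rose, against 5.43% of all tested genes called lower and 18.9% called in either direction. The mice of the 2 ages did not overlap for 7 of the 9 genes, all lower at PND 14, the exceptions being *Csf1* and *Bmp4*. Of all tested genes 60.7% had no overlap, 26.6% with the PND 14 mice lower. The median log2 fold change of the 9 genes was −1.07, against 0.11 over all genes tested.

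In PND 14/17, PND 17/21 and PND 21/28 none of the 9 genes was called (edgeR). The backgrounds were 0%, 10.3% and 7.66% of all tested genes in either direction, and 0%, 1.05% and 0.297% in the lower direction. At an unadjusted p under 0.05 edgeR found 0, 1 and 1 of the 9 genes, *Kitl* in PND 17/21 and *Inhba* in PND 21/28, against 4.56%, 28.2% and 23.8% of all tested genes. DESeq2 and limma also called none of them in these 3 comparisons. Over all genes, the PND 14/17 count of 0 in edgeR stood beside 769 genes at an unadjusted p under 0.05 and 1 gene called by DESeq2. All 9 fitted log2 fold changes were below 0 in PND 14/17, 6 were in PND 17/21 and 8 were in PND 21/28, against 50.4%, 49.7% and 48.6% of all tested genes.

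Over the whole interval, PND 7/28, *Gdnf*, *Kitl*, *Cxcl12*, *Fgf2*, *Inhba*, *Igf1* and *Igf1r* fell, 7 of the 9 genes and none rose, against 23.4% of all tested genes called lower and 55.6% called in either direction. Of the 9, 8 had no overlap between the PND 7 and the PND 28 mice, the exception being *Bmp4*, against 81.2% of all tested genes without overlap and 37.4% with the PND 28 mice lower. The median log2 fold change was −2.36, and it is the same with *Inhba* set at its lower bound, against 0.10 over all genes tested. In the test over all 5 ages the same 7 genes passed, where 57.5% of all tested genes did. *Csf1* (adjusted p = 0.152) and *Bmp4* (adjusted p = 0.642) did not pass it.

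**Figure D2:**
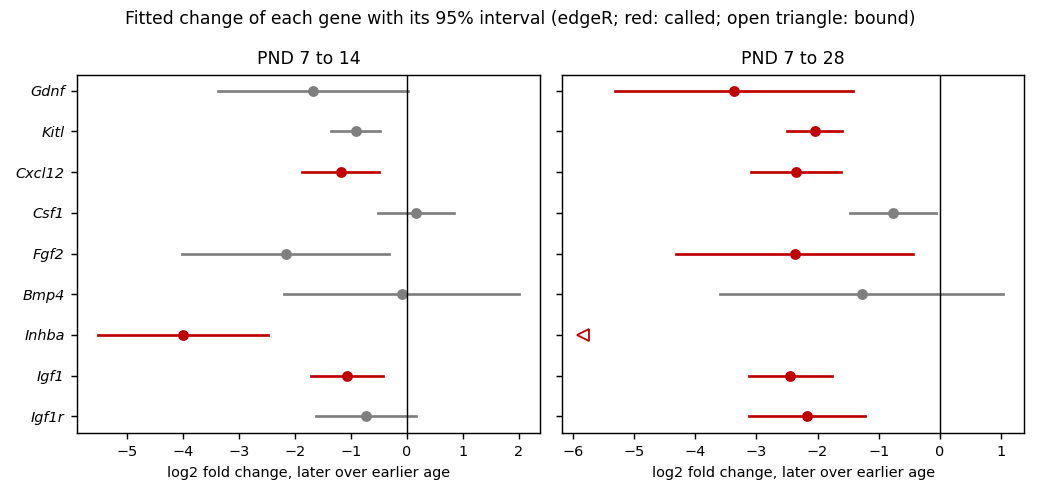
Fitted log2 fold change of each gene (horizontal axis, later over earlier age) in PND 7/14 and PND 7/28, with 95% intervals from edgeR, red where the gene was called. The open triangle is the bound for *Inhba*, which had 0 counts at PND 28. All values lie left of 0 except *Csf1* in PND 7/14, and the widest intervals are those of *Gdnf*, *Fgf2* and *Bmp4*.

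The GDNF signal acts on undifferentiated spermatogonia through the co-receptor GFRA1 and the kinase RET. *Gdnf* was at 9.31 and 16.5 CPM in the PND 7 mice, at 4.84 and 3.15 CPM at PND 14, at 3.0 and 3.39 CPM at PND 17, at 0.477 and 2.1 CPM at PND 21 and at 2.18 and 0 CPM at PND 28. Both PND 7 mice lay above every later mouse, and the count was 0 in PND 28 mouse 2, where the floor was 0.692 CPM. From PND 7 to PND 28 the log2 fold change was −3.36 ± 0.88 (SE, adjusted p = 0.00655), and from PND 7 to PND 14 it was −1.68 ± 0.77 (adjusted p = 0.140). Without PND 28 mouse 2, the mouse with 0 counts, the PND 7/28 value was −2.53 (adjusted p = 0.0256), and without PND 28 mouse 1 the age has no count. Of the receptor genes, *Gfra1* was at 4.94 ± 0.0464 CPM at PND 7 and 5.90 ± 2.75 CPM at PND 28 (SD, n = 2), a log2 difference of 0.23 with a 95% interval from −1.04 to 1.51. *Ret* fell from 13.3 ± 2.50 to 2.20 ± 0.802 CPM (log2 fold change −2.62 ± 0.60, adjusted p = 0.00305).

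FGF2 is used with GDNF to keep spermatogonial stem cells in culture. *Fgf2* was at 2.60 and 10.9 CPM in the PND 7 mice, at 1.87 and 1.05 CPM at PND 14, at 1.81 and 0.484 CPM at PND 17, at 0.716 and 1.40 CPM at PND 21 and at 0.818 and 1.85 CPM at PND 28. The PND 7 value is high in mouse 2 alone: its barcodes gave 5.54 and 7.16 RPKM, against 1.90 and 0.990 RPKM in mouse 1, which lay near the later mice. The log2 fold change in PND 7/28 was −2.38 ± 0.88 (SE, adjusted p = 0.0355), and without PND 7 mouse 2 it was −1.03 (adjusted p = 0.318). It was −1.83 (adjusted p = 0.217) without PND 28 mouse 1 and −2.98 (adjusted p = 0.0693) without PND 28 mouse 2. The *Fgf2* call was lost in 9 of 23 alternative analyses, among them DESeq2 (adjusted p = 0.0529). The receptor genes *Fgfr1* (log2 fold change −3.29 ± 0.58, adjusted p = 0.000560) and *Fgfr2* (−1.78 ± 0.40, adjusted p = 0.00275) fell in PND 7/28. *Fgfr1* and 2 other listed symbols have more than 1 locus in the annotation, and the locus with more counts was used.

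A list of spermatogonial genes tied to GDNF and FGF signals, 7 of 8 tested, held 1 call in PND 7/28, a rise of *Id4*, with a median log2 fold change of −0.55. Of all tested genes, 55.6% were called in either direction in this comparison and 23.4% were called lower. *Id4*, an inhibitor of basic helix-loop-helix factors that marks spermatogonial stem cells, rose from 5.27 ± 0.521 to 34.7 ± 6.08 CPM (log2 fold change 2.71 ± 0.34, adjusted p = 5.03e-05). It was already at 20.9 and 37.5 CPM in the PND 14 mice, the age by which the spermatocyte markers had risen. *Etv5* had a log2 fold change of 0.85 (adjusted p = 0.376) and *Bcl6b* one of −1.54 (adjusted p = 0.0730). The summed level of these targets was 24.7 to 25.4 CPM at PND 7 and 48.1 to 53.3 CPM at PND 28. Without *Id4* it was 19.1 to 20.5 CPM and 14.3 to 17.7 CPM. The summed level of 9 spermatogonia markers went from between 413 and 448 CPM to between 172 and 204 CPM over the same ages, with 5 called lower and 1 higher, again *Id4*. The part of germ cell content in these values was not tested.

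KIT ligand is made by Sertoli cells and acts on KIT, which differentiating spermatogonia and Leydig cells carry. *Kitl* was at 324 and 293 CPM in the PND 7 mice, at 165 and 161 CPM at PND 14, at 133 and 126 CPM at PND 17, at 99.5 and 81.6 CPM at PND 21 and at 70.9 and 78.2 CPM at PND 28. Each age lay below the one before it with no overlap between mice. *Kitl* had a log2 fold change in PND 7/28 of −2.05 ± 0.21 (SE, adjusted p = 1.23e-05). In PND 7/14 it was −0.92 ± 0.20 with an adjusted p of 0.00868, which passed the p threshold but not the 2-fold limit. Of the later comparisons, that of PND 17/21 had the largest change, −0.52 (adjusted p = 0.122). Between 6 and 14 of its 16 annotated exons held more than 10 reads in a library. *Kit* fell from 116 ± 8.82 to 39.1 ± 12.9 CPM in PND 7/28 (log2 fold change −1.58 ± 0.27, adjusted p = 0.000441).

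CXCL12 is a chemokine of Sertoli cells whose receptor CXCR4 is found on spermatogonial stem cells, and ACKR3 binds and removes it. *Cxcl12* was at 49.8 and 86.0 CPM in the PND 7 mice, at 34.0 and 25.6 CPM at PND 14, at 25.7 and 19.6 CPM at PND 17, at 16.5 and 12.4 CPM at PND 21 and at 13.9 and 12.5 CPM at PND 28. Both PND 7 mice lay above all later mice, and the PND 14 and PND 17 mice overlapped, as did those of PND 21 and PND 28. Its log2 fold change was −1.18 in PND 7/14 (adjusted p = 0.0218) and −2.36 ± 0.33 in PND 7/28 (adjusted p = 0.000125). Without PND 7 mouse 2 the PND 7/14 value was −0.73 (adjusted p = 0.166), and without PND 14 mouse 2 it was −1.01 (adjusted p = 0.130). *Cxcr4* was at 5.25 ± 1.92 CPM at PND 7 and 7.84 ± 1.63 CPM at PND 28 (log2 difference 0.58, 95% interval −0.69 to 1.85), and *Ackr3* had a log2 fold change of −0.92 (adjusted p = 0.0609).

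CSF1 is the growth factor of macrophages and also acts on spermatogonia through CSF1R. *Csf1* was at 12.5 and 15.9 CPM in the PND 7 mice, at 15.8 CPM in both mice at PND 14, at 11.2 and 10.9 CPM at PND 17, at 9.54 and 13.6 CPM at PND 21 and at 9.0 and 7.62 CPM at PND 28. Its levels spanned a narrower range than those of the other genes, and the PND 28 mice were the lowest of all 10. The log2 difference in PND 7/28 was −0.76 with a 95% interval from −1.47 to −0.06 (adjusted p = 0.0580). With library totals in place of TMM scaling it was −1.09 (adjusted p = 0.0105), a call. *Csf1r* was at 14.97 ± 3.34 CPM at PND 7 and 17.2 ± 1.16 CPM at PND 28, a log2 difference of 0.20 (95% interval −0.67 to 1.06). None of 8 macrophage markers was called in PND 7/28 (edgeR), against 55.6% of all tested genes called in either direction. The summed level of these markers was 87.5 to 106 CPM at PND 7 and 95.7 to 117 CPM at PND 28.

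*Inhba* gave the largest change. Its product pairs with itself to form activin A, a mitogen of immature Sertoli cells, or with the inhibin alpha subunit to form inhibin A. *Inhba* was at 7.81 and 21.6 CPM in the PND 7 mice, at 0.880 and 0.920 CPM at PND 14, at 0.628 and 0.968 CPM at PND 17, at 0.716 and 1.05 CPM at PND 21 and at 0 CPM in both PND 28 mice. In counts, the 4 PND 7 barcodes held 50, 28, 70 and 91 reads, the mice from PND 14 to PND 21 between 3 and 9, and the PND 28 mice none. The log2 fold change in PND 7/14 was −4.00 ± 0.68 (SE, adjusted p = 0.00280), and it was called without each mouse in turn, at −3.09 (adjusted p = 0.0140) without PND 7 mouse 2. In PND 7/28 *Inhba* was at least 57.3-fold lower, with 3 counts over both PND 28 mice as the floor (0.257 CPM), and at least 30.4-fold lower against the lower PND 7 mouse (adjusted p = 8.51e-05). In PND 21/28 it was at least 3.43-fold lower (adjusted p = 0.0637).

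The other subunit genes did not share this course. *Inhbb*, of the beta B subunit, fell from 104 ± 13.7 to 26.2 ± 3.37 CPM in PND 7/28 (log2 fold change −1.99 ± 0.25, adjusted p = 6.47e-05). *Inha*, of the alpha subunit, was at 120 ± 25.6 and 81.7 ± 7.19 CPM, a log2 difference of −0.56 (95% interval −1.23 to 0.10). *Fst*, of the activin-binding follistatin, fell by 1.84 on the log2 scale (adjusted p = 0.0340). Among the activin receptor genes, *Acvr2a* was at 42.7 ± 3.19 CPM and 63.0 ± 0.375 CPM, a log2 difference of 0.56 that passed the p threshold (adjusted p = 0.0318) but not the 2-fold limit, and *Acvr2b* had a log2 difference of −1.34 (adjusted p = 0.0539).

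BMP4, of the same superfamily, acts on spermatogonia through BMPR1A and BMPR2. *Bmp4* was at 4.10 and 0.403 CPM in the PND 7 mice, at 1.43 and 2.89 CPM at PND 14, at 1.60 and 2.66 CPM at PND 17, at 0.239 and 1.57 CPM at PND 21 and at 0.954 and 0.923 CPM at PND 28. The PND 7 mice held both the highest value of the series and a value at the floor, and each was alike in its barcodes, with 26 and 15 counts in mouse 1 and 1 and 2 counts in mouse 2. The log2 difference in PND 7/28 was −1.28 with a 95% interval from −3.59 to 1.04 (adjusted p = 0.310). It turned to 1.20 without PND 7 mouse 1 and to −2.11 without PND 7 mouse 2, so no direction can be given for this gene. *Bmpr1a* (log2 fold change −1.33 ± 0.21, adjusted p = 0.000302) and *Bmpr2* (−1.71 ± 0.30, adjusted p = 0.000589) fell in PND 7/28.

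IGF1 is the mediator of growth hormone action and is made in the testis mainly by Leydig and other somatic cells. *Igf1* was at 184 and 268 CPM in the PND 7 mice, at 91.5 and 124 CPM at PND 14, at 95.5 and 91.0 CPM at PND 17, at 49.2 and 76.7 CPM at PND 21 and at 34.6 and 48.5 CPM at PND 28. Neighbouring ages did not overlap, apart from PND 14 and PND 17. The log2 fold change was −1.07 in PND 7/14 (adjusted p = 0.0255) and −2.45 ± 0.31 in PND 7/28 (adjusted p = 5.75e-05). The PND 7/14 value was −0.89 (adjusted p = 0.106) without PND 14 mouse 1 and −0.76 (adjusted p = 0.166) without PND 7 mouse 2, neither a call.

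*Igf1r* encodes the receptor of IGF1 and IGF2. It was at 54.4 and 54.3 CPM in the PND 7 mice, at 46.1 and 19.1 CPM at PND 14, at 17.9 and 21.5 CPM at PND 17, at 26.0 and 14.0 CPM at PND 21 and at 10.2 and 14.1 CPM at PND 28. The PND 7 mice lay above all others and PND 14 mouse 1, which carried spermatid markers, was closest to them, followed by PND 21 mouse 1. These mice also had the largest shares of intron reads. The part of the intron share in the *Igf1r* levels was not tested. The log2 fold change in PND 7/28 was −2.17 ± 0.43 (SE, adjusted p = 0.00127). In PND 7/14 it was −0.73 (adjusted p = 0.211) with all mice and −1.54 (adjusted p = 0.0272) without PND 14 mouse 1.

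Around this ligand and receptor, *Igf2* fell from 56.3 ± 6.11 to 4.17 ± 0.305 CPM in PND 7/28 (log2 fold change −3.76 ± 0.48, adjusted p = 6.00e-05). Of the binding protein genes, *Igfbp5* fell by 5.01 on the log2 scale (adjusted p = 0.00135). The growth hormone receptor gene *Ghr* (log2 fold change −2.72 ± 0.42), its induced inhibitor *Socs2* (−2.76 ± 0.34) and the IGF1 receptor substrate *Irs1* (−2.56 ± 0.43) also fell, with adjusted p of 0.000259, 5.06e-05 and 0.000399. *Igf2r* (−2.46 ± 0.41) and *Insr* (−1.24 ± 0.41) fell as well.

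Receptor genes of these factors and of insulin and IGF2, 17 in all, held 8 calls lower and none higher in PND 7/28. Their median log2 fold change was −1.33, and 1 of them was called lower in PND 7/14. Of all tested genes, 23.4% were called lower and 55.6% in either direction in PND 7/28, and 5.43% lower in PND 7/14. The receptors that did not pass include *Gfra1*, *Cxcr4*, *Csf1r* and *Acvr2b*, whose values are given above. Of 22 tested genes of 29 for related ligands, binding proteins and inhibitors, 14 fell and 1 rose in PND 7/28, with a median of −1.93. Among the falls were those of *Tgfb2* (11.7 to 0.619 CPM, adjusted p = 0.000180), *Bmp2* (5.81 to 0.273 CPM, adjusted p = 0.00377) and *Lif* (5.92 to 0.367 CPM, adjusted p = 0.00303), whose PND 28 means lie near the floor. In PND 7 mice 1 and 2, *Tgfb2* was at 7.51 and 16.0 CPM, *Bmp2* at 4.10 and 7.52 CPM and *Lif* at 2.30 and 9.54 CPM. *Bmp8b*, a BMP gene of germ cells, was at 0.501 and 0 CPM at PND 7, and rose to 2.45 and 5.77 CPM at PND 28 (adjusted p = 0.00900). Of 14 genes of SMAD and growth hormone signaling, 11 fell and 1 rose, with a median of −2.23. The activin mediator *Smad3* (−3.37) and the inhibitory *Smad7* (−3.61) fell, and the inhibitory *Smad6* rose (2.66).

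**Figure D3:**
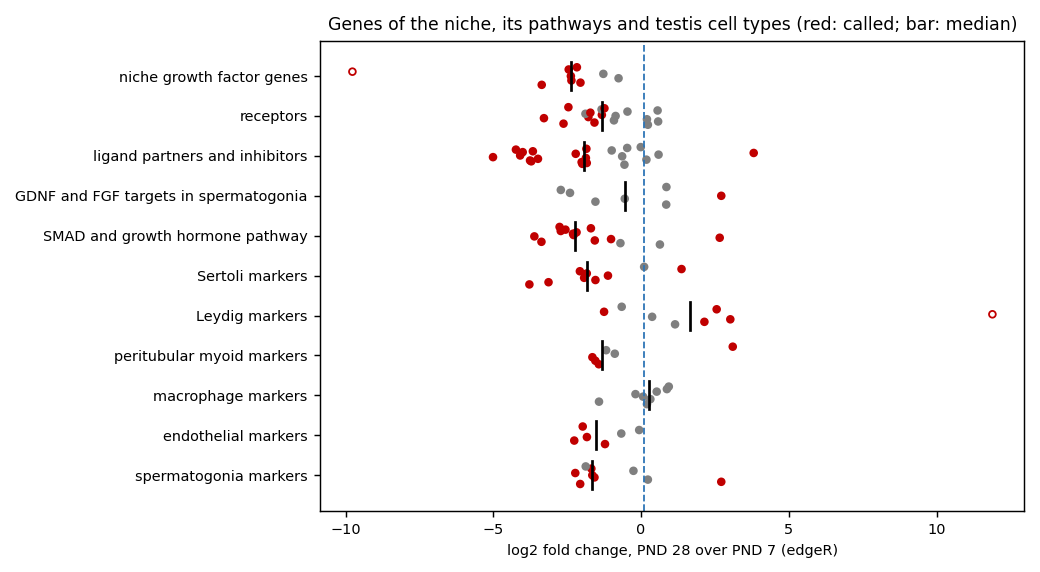
Fitted log2 fold change of PND 28 over PND 7 (horizontal axis, edgeR) for every tested gene of the niche growth factors, their pathway lists and the marker lists of somatic testis cells and spermatogonia, red where called, with a bar at the median of each list and a dashed line at the median of all tested genes. Open points are genes with 0 counts in both mice of an age, *Inhba* and the Leydig marker *Hsd3b6*, whose fitted value is no bound. The medians of the niche genes and of the SMAD list lie lowest (−2.36 and −2.23) and those of the Leydig and macrophage markers lie above 0 (1.65 and 0.26).

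Marker genes of the somatic cells moved in the same interval, PND 7/28, where 23.4% of all tested genes were called lower and 55.6% in either direction. Of 9 tested Sertoli markers, 7 were lower and 1 higher at PND 28, and their summed level went from between 1784 and 2143 CPM to between 612 and 758 CPM. Of 6 endothelial markers 4 were lower (107.5 to 144 CPM at PND 7, 34.2 to 51.9 CPM at PND 28), and of 6 peritubular myoid markers 3 were lower and 1 higher (419 to 532 CPM, then 230 to 276 CPM). Of 8 Leydig markers 4 were higher and 1 lower, with 324 to 328 CPM at PND 7 and 919 to 1225 CPM at PND 28. No marker of these lists was at 0 in both PND 28 mice, and *Hsd3b6*, of adult Leydig cells, was at 0 in both PND 7 mice. The part of cell composition in the changes of the niche genes was not tested.

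To set the niche genes beside a Sertoli cell measure, each mouse's log2(CPM + 0.5) was taken minus its mean over 5 Sertoli genes, *Sox9*, *Wt1*, *Fshr*, *Cldn11* and *Dhh*. This reference itself was 1.87 lower at PND 28 than at PND 7 (log2), since all 5 genes fell. Their falls were unequal, from 73.8 and 85.3 to 5.73 and 12.9 CPM for *Sox9* and from 274 and 177 to 103 and 105 CPM for *Cldn11*. Of the Sertoli markers outside the reference, *Amh* and *Clu* also fell. *Trf* rose from 18.7 and 31.8 to 70.3 and 59.8 CPM, and *Defb19* was at 136 and 112, then 133 and 133 CPM. The values below depend on this choice of genes. The values are descriptive, with no test. *Kitl* stood at 1.83 and 2.01 above the reference in the PND 7 mice and at 1.89 and 1.61 in the PND 28 mice, which overlap. Between them it stood at 1.11 and 1.68 at PND 14, 1.40 and 0.97 at PND 17 and 1.56 and 1.19 at PND 21. All of these lie below both PND 7 mice. The fall of *Kitl* was thus close to the mean fall of these 5 Sertoli genes from PND 7 to PND 28, but not at the ages between. *Cxcl12* (−0.86 and 0.24 at PND 7, −0.42 and −0.99 at PND 28) and *Fgf2* (−4.88 and −2.68, then −3.87 and −3.46) also overlapped.

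*Igf1* was at 1.02 and 1.88 at PND 7 and at 0.87 and 0.92 at PND 28, apart by a narrow margin with a mean change of −0.55. *Igf1r* was at −0.73 and −0.42, then at −0.84 and −0.82, also apart by a narrow margin. Its change of −0.26 was smaller than the pooled SD of its mice within ages, 0.38. *Csf1* went from −2.81 and −2.16 up to −1.02 and −1.67, a change of 1.14 relative to the Sertoli reference with no overlap. *Bmp4* was at −4.31 and −6.34 at PND 7 and at −3.73 and −4.18 at PND 28, a mean change of 1.37. The margin between the ages was narrow and a PND 7 mouse was at the floor, so no direction is given. *Gdnf* (−1.61, overlapping) and *Inhba* (−2.89, no overlap) were lower relative to the reference, and with 0 counts at PND 28 the size of both depends on the pseudocount.

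**Figure D4:**
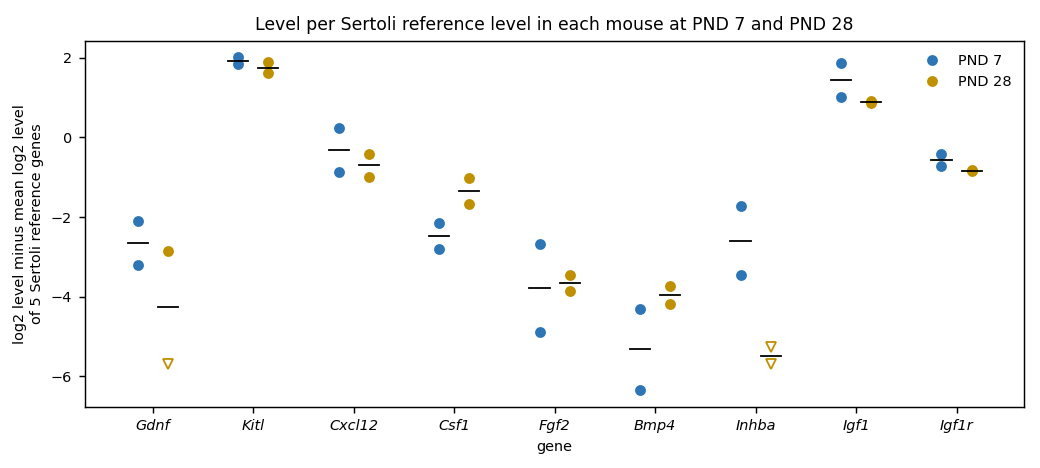
Level of each gene in each mouse relative to the mean of 5 Sertoli genes, on the log2 scale with a pseudocount of 0.5 CPM, at PND 7 and PND 28, with a bar at the mean of the 2 mice. Open triangles are mice with 0 counts, placed by the pseudocount. *Kitl*, *Cxcl12* and *Fgf2* overlap between the ages, *Csf1* is higher at PND 28, and *Inhba* is lower. The ages of *Bmp4* lie apart by a narrow margin, with a PND 7 mouse at the floor.

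The genes whose course over the 10 mice was most like that of each niche gene were sought among the 12365 genes whose mean reached 5 CPM, by the root mean square difference of log2 levels after each gene was centred on its own mean. The nearest to *Kitl* was *Nudt19*, at a difference of 0.118, and the nearest to *Igf1r* was *Myl9*, a myosin light chain gene of smooth muscle, at 0.0864. *Igf1* was nearest to *1110021L09Rik* (0.158) and then to *Cdh5*, the cadherin of endothelial cells (0.165), *Cxcl12* to *Araf* (0.202) and *Csf1* to *Maz* (0.119). *Inhba* was nearest to *Vcan*, of the matrix proteoglycan versican (0.410), which went from 62.6 CPM at PND 7 to 3.09 CPM at PND 28, and then to *Agtr2*, an angiotensin receptor gene (0.455). The nearest genes to *Gdnf*, *Fgf2* and *Bmp4* were *Rbm3* (0.412), *Mutyh* (0.284) and *Itga8* (0.304). Likeness over 10 mice describes these libraries and carries no test.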

How the data were processed

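Total RNA of whole testes was depleted of ribosomal RNA, and the authors aligned 50 bp SOLiD 4 reads to mm9 with LifeScope v2.1. Their filters took out structural RNA and repeats, and multimapping beyond 10 places. The deposited values are counts, per Ensembl gene, of uniquely aligned exon reads. The authors also deposited RPKM, which divides the count by exon length and counted reads. A deposited column on the number of exons with more than 10 reads counts whole exons and was used only for coverage.

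Symbols came from GENCODE M1 (37310 of 37675 identifiers). The 2 barcodes of a PND 7 mouse were added (RPKM averaged), leaving 2 mice per age. Counts were fitted for all 10 mice with edgeR 4.0.16 (TMM, filterByExpr, quasi-likelihood) in R 4.3.3. SE is the log2 fold change over the root of its F value. DESeq2 1.42.0 and limma 3.58.1 on log2(RPKM + 1) or log2(RPKM + 0.1) were alternatives, beside other scalings and filters, a replicate block, separate barcodes and leaving out each mouse. Total counts lay between 3994026 and 13559548. Python 3.11.15, numpy 2.4.6, pandas 2.3.3 and matplotlib 3.10.9 made the tables. The scripts were tested on simulated data.

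The 9 genes and all lists were chosen with earlier results of these data known. Named from the lists are the main receptors and partners and, per list, called genes among the 6 largest changes in PND 7/28. Of the 138 list genes, 1 symbol was unmatched, the Sertoli marker *Rhox5*. *Insr* and, for PND 14 mouse 1, *Prm1* were named after their values were seen. Each gene's 2 likest genes were found, and the nearest are named.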

Additional observations from a re-analysis of the deposited data

How the results depend on the processing

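The PND 7/28 calls of *Kitl*, *Igf1* and *Igf1r* held in 23 of 23 alternatives. For PND 7/28, where 7 genes were called, the study's criteria left 3 (*Kitl*, *Igf1* and *Igf1r*). Those criteria ask for an unadjusted limma p of at most 0.01, a 2-fold change and 10 RPKM between the means. *Cxcl12*, *Inhba*, *Gdnf*, *Fgf2*, *Csf1* and *Bmp4* averaged at most 8.89 RPKM at PND 7, so no fall of theirs could pass. Over all genes these criteria called 1144 of 26788 lower, against 3948 of 16860 in the main fit. For PND 7/14, 3 of the 9 genes were called, where 916 of all 16860 tested genes were called lower. No filter on low counts gave 5 (1137 of 26788 genes lower). Limma on log2(RPKM + 1) and on log2(RPKM + 0.1) gave 1 each (477 and 429 of 26788 lower), and the study's criteria gave 0 (117 of 26788 lower). Leaving out a mouse gave 1 to 4, with 1 (*Inhba*) without PND 7 mouse 2. For PND 21/28, where none was called, no filter gave 1 (*Inhba*), with 289 of 26788 genes called lower against 50 of 16860 in the main fit. *Bmp4* reversed in PND 7/14, to 0.15 with limma on log2(RPKM + 1) and under the study's criteria and to 0.58 with log2(RPKM + 0.1). Without a mouse it lay between −0.92 and 2.39 in PND 7/14 and between −2.11 and 1.20 in PND 7/28. The cause was not tested. A fit without a mouse leaves 1 at its age, which is assumed to vary like the other ages, and without PND 28 mouse 1 the *Gdnf* group is at 0.

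With mouse number as a replicate block, 3 of the 9 genes were called in PND 7/14 and 6 in PND 7/28, where *Fgf2* had an adjusted p of 0.0519 (edgeR). That fit called 783 and 3837 of all 16860 tested genes lower in these 2 comparisons. The differences between mouse 1 and mouse 2 correlated from −0.21 to 0.37 over 10 pairs of ages. They were over 0.1 for 2 pairs, PND 14 with PND 21 (0.37) and PND 17 with PND 28 (0.13). Same-numbered mice thus deviated in part alike at PND 14 and PND 21, but the numbers gave no pairing across all ages. Library totals moved the median of all genes in PND 7/28 by −0.32 against TMM, and RLE scaling moved it by 0.17. Relative to the Sertoli genes, a pseudocount of 0.1 CPM gave −2.80 for *Gdnf* and −5.13 for *Inhba*, and leaving out *Sox9* gave −0.48 for *Kitl*. *Bmp4* was not tested in PND 7/28 with only the 4 mice, where it failed the filter. With 2 mice an age and at most 44 counts in a library from PND 14 on for *Gdnf*, *Fgf2*, *Bmp4* and *Inhba*, no later change of those genes passed the test with all mice and the filter, and small changes were not detectable at this depth.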
